A study of Mus musculus with 7 samples.

Results

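Cullins are the scaffolds of the largest class of ubiquitin ligases. A cullin holds a RING subunit, which brings the ubiquitin-charged enzyme, at one end and an adaptor, which brings the protein to be marked, at the other, and it becomes active once the small protein NEDD8 is joined to it. CUL3 takes adaptors with a BTB domain, among them the Klhl proteins, which grip their targets with a Kelch propeller, and many of the Kctd proteins, whose BTB domain resembles that of potassium channels. In skeletal muscle several Klhl proteins are known for their part in the building of the sarcomere.

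Members were all genes of the deposited table whose symbol starts with Cul, Klhl or Kctd followed by a digit. This gave 67 of 23930 genes, namely 8 cullins, 37 Klhl genes and 22 Kctd genes. The rule reads the symbol and no measured value, but these families were picked for description with earlier results of these data known. The mean over the 7 libraries was at least 1 RPM (reads of a gene after each library was scaled to the same total) in 56 members and at least 10 RPM in 33, and 11 members lay below 1 RPM.

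Libraries came from sorted Pax7-GFP+ cells of the hind leg muscles of inducible Pax7-GFP C57BL/6 mice, 3 from normocapnia (NC1 to NC3) and 4 from hypercapnia (HC1 to HC4), and per the labels all mice received tamoxifen at 12 weeks of age and spent 4 weeks in their condition until 16 weeks of age. In this reporter a Cre driven by Pax7, the transcription factor of satellite cells, switches on GFP for good, so that the progeny of satellite cells stay green. The mice carried Pax7-Cre+/- and Lox-GFP+/+, both sexes were used, hypercapnia was a chamber with raised CO2 and controls of the same genotype breathed room air. The methods describe cardiotoxin injury of the hind leg muscles in both groups 3 days before sorting, which the labels do not state. The deposited table carries a time of 40 hours in its name, which no source read here explains for these libraries, so the time between injury and collection is uncertain for every value below. Whether each library is 1 mouse is not stated, so p-values measure the spread between these libraries.

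Values of single libraries are given in the order NC1 to NC3 and HC1 to HC4. Library totals ran from 14527445 to 23388710 reads, so 3 reads stood for 0.128 to 0.207 RPM. The labelled cell type was carried unevenly. Pax7 stood at 268, 8.25 and 4.34 RPM under normocapnia, and at 21.5, 20.1, 79.5 and 59.7 RPM under hypercapnia. The summed level of 10 satellite cell markers was 606 to 3626 RPM in normocapnia and 791 to 1589 RPM in hypercapnia, and 0 of them passed the test. Sdc4 alone made up most of this sum in NC2, NC3, HC1 and HC2 (781, 441, 441 and 429 RPM). The sum therefore understates how low the other satellite cell markers were there. The sum of 10 macrophage markers was 12269 to 35012 RPM in normocapnia and 20100 to 24991 RPM in hypercapnia, with 1 of them, Adgre1, called higher and 1, C1qa, at 0 in at least one library. Lyz2 alone made up most of this sum in every library, from 8354 RPM in NC1 to 29108 RPM in NC3, so the sum mainly follows that gene. Of 6 neutrophil markers 1, Mmp8, was called higher (summed level 46.8 to 146 RPM and 39.9 to 206 RPM), with Ly6g and Camp at 0 in at least one library. None of 5 lymphocyte (7.91 to 16.3 RPM and 12.6 to 13.4 RPM), 5 endothelial (80.5 to 205 RPM and 43.7 to 469 RPM) or 5 fibro-adipogenic markers (965 to 1718 RPM and 833 to 2137 RPM) was called, and 4 of the lymphocyte markers (Cd3e, Cd3g, Ms4a1 and Nkg7) were at 0 in at least one library. Xist, which marks female cells, lay between 445 and 701 RPM in NC1, NC2, HC1 and HC2 and at or below 0.125 RPM in NC3, HC3 and HC4. In bulk samples fewer cells of a type and less RNA per cell cannot be told apart. The part of cell makeup and of sex in the results was not tested beyond the fits that carry them as a covariate.

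Differences are given as log2 fold changes of hypercapnia over normocapnia on the log2(RPM + 1) scale, with limma fitted over all genes, and a gene was called where the unadjusted p was under 0.05 and the fold above 1.5. Fold changes of genes near 1 RPM are understated on this scale. The fit takes the same spread in both groups. In 81.1% of genes at 1 RPM or more the spread was larger in normocapnia, the smaller group. The limma p-values can then be too small. Of the 67 members, 3 were called lower (Cul1, Kctd2 and Kctd6) and 0 higher. Over all genes 1.14% were called lower and 1.43% higher, and among those averaging 1 RPM or more 2.1% and 2.66%, so 3 of 56 lies above the share of lower calls and 0 of 56 below the share of higher calls, with no test of either. No member passed Benjamini-Hochberg adjustment in limma (0 of 67, lowest adjusted p 0.351, 6 members at an unadjusted p under 0.05, background 0.0%), in edgeR (0.0%) or in DESeq2 (0.223%). The groups did not overlap in 5 members, 4 of them lower (Kctd2, Kctd6, Kctd9 and Klhl5) and 1 higher (Kctd16), beside 2.3% and 2.53% of all genes and 3.63% and 4.09% of genes at 1 RPM or more.

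Fold changes were above 0 in 36 members and below 0 in 31, with a median of 0.05. In members at 1 RPM or more the median was 0.04, beside 0.16 for all genes at this level. By family the median was -0.15 for the cullins, 0.02 for Klhl and 0.32 for Kctd. Under median-of-ratios scaling these medians were -0.02 for all members and 0.04 for all genes at 1 RPM or more, and under quantile normalization -0.12 and -0.01. The sign of the members' median turned with the tool and with single libraries, as did that of all genes at 1 RPM or more: the 2 medians were -0.16 and -0.01 in edgeR, -0.14 and -0.04 in DESeq2, 0.22 and 0.36 without NC1 and -0.22 and -0.07 without NC3.

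The counts depended on the tool and on single libraries. On whole reads, 5 members were called lower and 1 higher both in edgeR (3.82% and 2.21% of all genes tested) and in DESeq2 (3.76% and 2.49%), and 3 and 0 in edgeR without a filter (2.68% and 1.7%). Kctd9 and Klhl5 joined the lower calls in edgeR and DESeq2, and Kctd16 was the higher one. A pseudocount of 0.1 RPM gave 4 and 1 (1.69% and 1.83%), Xist as a covariate 5 and 1 (2.1% and 3.4%) and a macrophage score as a covariate 0 and 1 (1.06% and 2.57%). The higher call was Kctd16 with this pseudocount, Kctd10 with Xist and Klhl23 with the macrophage score. Without NC1 the counts were 3 and 4 (2.07% and 6.25%), without NC2 5 and 3 (2.23% and 2.8%) and without NC3 3 and 0 (1.59% and 0.982%). The higher calls were Kctd15, Klhl22, Klhl23 and Klhl42 without NC1 and Kctd10, Kctd12 and Klhl17 without NC2. Without HC2 the counts were 1 and 0 (0.669% and 0.903%) and without HC3 5 and 0 (1.16% and 1.23%). Kctd6 was called in each fit that left out a library.

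**Figure D1:**
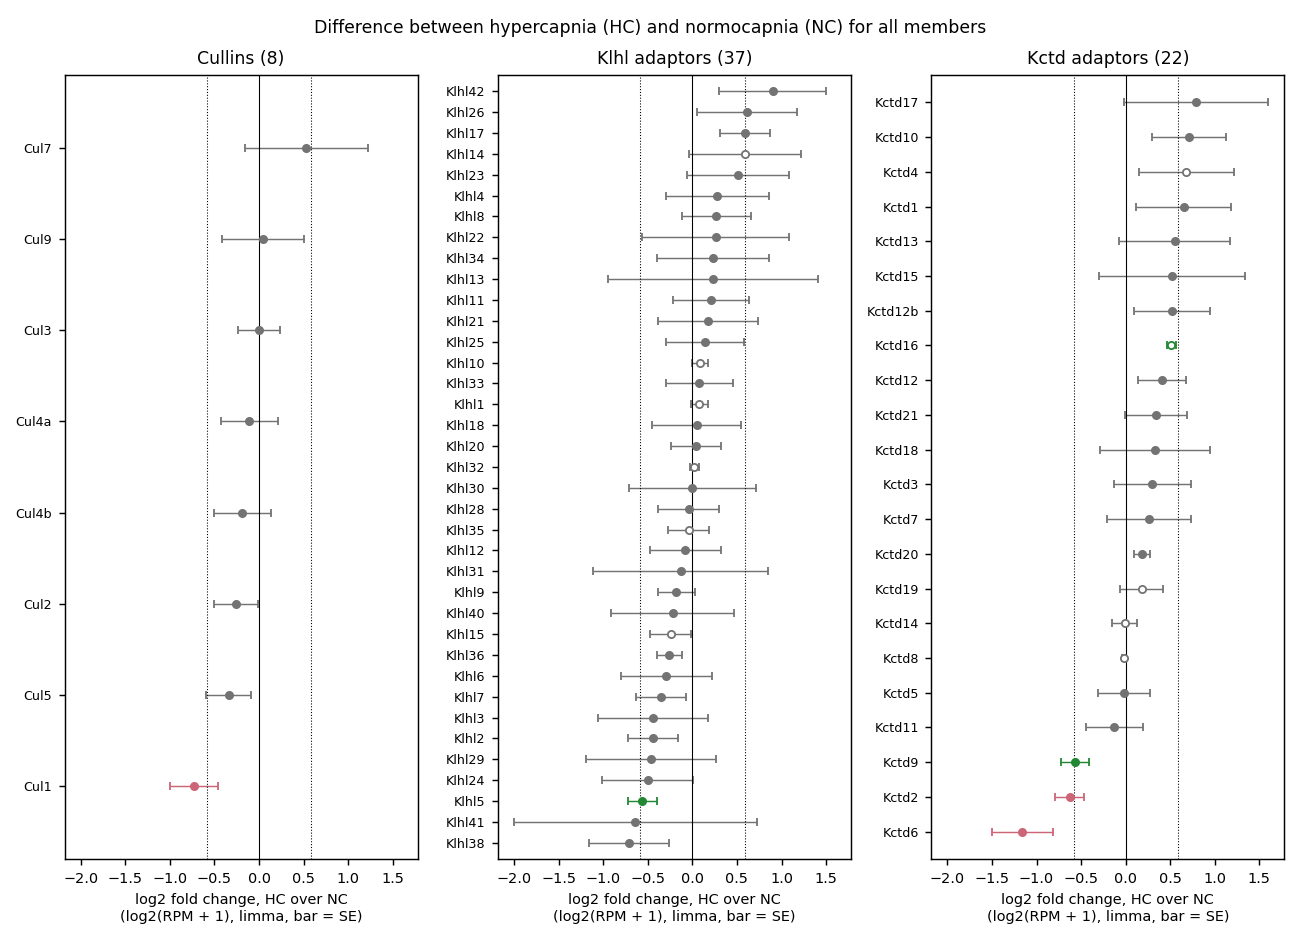
Log2 fold change of each of the 67 members on the log2(RPM + 1) scale (x axis) with its SE as a bar, for 8 cullins, 37 Klhl and 22 Kctd genes sorted by value. Red marks the 3 called members, green the other members whose groups do not overlap, open circles a mean under 1 RPM and dotted lines a fold of 1.5. Most members lie between the dotted lines, and Kctd6 at -1.16 lies farthest to the left.

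The cullins are the scaffolds themselves. Of 8 cullins, 1 was called lower, 0 higher (1.14% and 1.43% of all genes) and 7 did not pass the test, and all 8 had a mean of at least 1 RPM. Cul1, which with SKP1 carries the F-box proteins, stood at 90.2, 69.7 and 122 RPM under normocapnia, and at 49.6, 42.7, 76.6 and 55.7 RPM under hypercapnia. Only HC3 lay above the lowest normocapnia library, and NC3, the highest, was the only control without Xist. Cul1 was lower, with means of 93.8 ± 26.1 (SD, n = 3) and 56.1 ± 14.6 RPM (SD, n = 4), a log2 fold change of -0.73 with an SE of 0.27 and a limma p of 0.0386 (adjusted p 0.915 over all genes). The call held in 10 of 20 alternatives and the direction in 20. It was lost without NC1, NC3, HC1, HC2 or HC4, and without NC3 the log2 fold change was -0.52. It was also lost with the filter at 1 RPM (-0.73, unadjusted p of 0.0558), with median-of-ratios scaling (-0.87, unadjusted p of 0.0614), with quantile normalization (-0.74, unadjusted p of 0.0506) and with the satellite (-0.74, unadjusted p of 0.0582) or the macrophage score (-0.50, unadjusted p of 0.0808) in the fit.

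Cul5 and Cul2, both of which take adaptors through elongins B and C, resembled Cul1 in that NC3 was their highest library. Cul5 read 57.1, 46.5 and 93.8 RPM in normocapnia against 50.5, 45.6, 56.2 and 46.8 RPM in hypercapnia, and Cul2 read 45.1, 34.2 and 68.6 RPM versus 38.1, 33.9, 44.7 and 41.8 RPM. In both, the groups overlapped and no call was made (log2 fold changes -0.34, SE 0.25, and -0.26, SE 0.25).

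Cul3, the scaffold of the Klhl and Kctd adaptors, read 207, 187 and 119 RPM in normocapnia and 162, 137, 164 and 208 RPM in hypercapnia. The highest and the lowest hypercapnia library spanned most of the range of the controls, and the log2 fold change was 0.00 with an SE of 0.24. Cul4a and Cul4b, which use DDB1 as their adaptor, were not called either. Cul4a lay between 38.5 and 65.5 RPM in normocapnia and between 35.1 and 65.7 RPM in hypercapnia, and Cul4b between 52.4 and 105.2 RPM and between 45.2 and 82.3 RPM. Their log2 fold changes were -0.11 (SE 0.32) and -0.19 (SE 0.32), and without NC1 they turned to 0.06 and 0.05. That of Cul3 lay between -0.24 and 0.15 without single libraries.

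Cul7 and Cul9 are the large atypical cullins, of which Cul9 binds p53 in the cytoplasm. In Cul7, NC3 held 0.551 RPM while NC1 and NC2 held 10.9 and 4.70 RPM, and the 4 hypercapnia libraries lay between 4.88 and 6.72 RPM (difference 0.53 on the log2 scale, SE 0.69). In Cul9, NC3 was again lowest at 3.37 RPM, beside 10.4 and 14.6 RPM in NC1 and NC2 and 7.19 to 10.7 RPM in hypercapnia (log2 fold change 0.05, SE 0.46). The direction of both rested on single libraries, with Cul7 at -0.28 without NC3 and 1.19 without NC1, and Cul9 at -0.49 and 0.43. NC3 carried the lowest value of both large cullins and of Cul3, and the highest of Cul1, Cul2 and Cul5.

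Of 22 Kctd genes, 2 were called lower, 0 higher (1.14% and 1.43% of all genes) and 20 did not pass the test, and 15 had a fold change above 0. The groups parted in 4 of them, 3 lower and 1 higher (2.3% and 2.53% of all genes). Kctd6, which with CUL3 degrades the histone deacetylase of the Hedgehog pathway and an ankyrin of muscle, had the largest fall on the log2(RPM + 1) scale, with 12.1, 11.1 and 29.1 RPM under normocapnia, and 6.34, 6.23, 7.25 and 6.43 RPM under hypercapnia. The hypercapnia libraries lay close together and all under the lowest normocapnia library, while NC3 lay far above the other normocapnia libraries. The means were 17.4 ± 10.1 (SD, n = 3) and 6.56 ± 0.464 RPM (SD, n = 4), the log2 fold change -1.16 (SE 0.34, unadjusted limma p of 0.0161, adjusted p of 0.909). The SDs of the groups differed widely, which this p does not allow for. The call held in 17 of 20 alternatives and the direction in 20. With quantile normalization (-1.34, unadjusted p of 0.0562) and when the macrophage score was a covariate (-1.06, unadjusted p of 0.0513) it was lost by its p while the fold stayed above 1.5, and without NC3 the log2 fold change was -0.74 and the call held.

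Kctd2, a relative of KCTD5 that takes part in the turnover of G protein beta-gamma subunits, was also lower. It stood at 24.8, 18 and 17.8 RPM in normocapnia and at 11.9, 11.1, 15.2 and 12.3 RPM in hypercapnia. All 4 hypercapnia libraries lay under the controls, and here NC3 was the lowest control rather than the highest (log2 fold change -0.63, SE 0.16, unadjusted limma p of 0.00859, adjusted p of 0.827). The call held in 15 of 20 alternatives and the direction in 20. The fold fell under the threshold without NC1 (-0.48) or HC2 (-0.58), with a pseudocount of 5 RPM (-0.51) and when the macrophage score was a covariate (-0.49).

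In Kctd9, another CUL3 adaptor, the groups were apart but the fold was just under the threshold. It read 25.4, 21.7 and 32.1 RPM under normocapnia, and 14.7, 17.2, 19.8 and 17.9 RPM under hypercapnia (log2 fold change -0.57, SE 0.16, unadjusted limma p of 0.0134, adjusted p of 0.884). It was called in 7 of 20 alternatives, edgeR and DESeq2 among them, and its direction held in 20. The highest hypercapnia library, HC3, came within a few RPM of NC2.

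Kctd16, an auxiliary subunit of GABA-B receptors, had the smallest p of all members but very few reads. It was read 5, 3 and 2 times in NC1 to NC3 and 13, 15, 11 and 9 times in HC1 to HC4, that is 0.223, 0.128 and 0.138 RPM versus 0.556, 0.754, 0.687 and 0.609 RPM. Every hypercapnia library lay above every control, and the controls held 2 to 5 reads. Summed over each group and set against library totals, the ratio was 3.91 (95% exact interval 1.95 to 8.67, counting error only). On the log2(RPM + 1) scale this was 0.51 (SE 0.05, unadjusted limma p of 0.000124, adjusted p of 0.351), which is under the fold threshold. With a pseudocount of 0.1 RPM, in edgeR and in DESeq2 it was called higher, and in edgeR without a filter it was not (unadjusted p of 0.102).

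**Figure D2:**
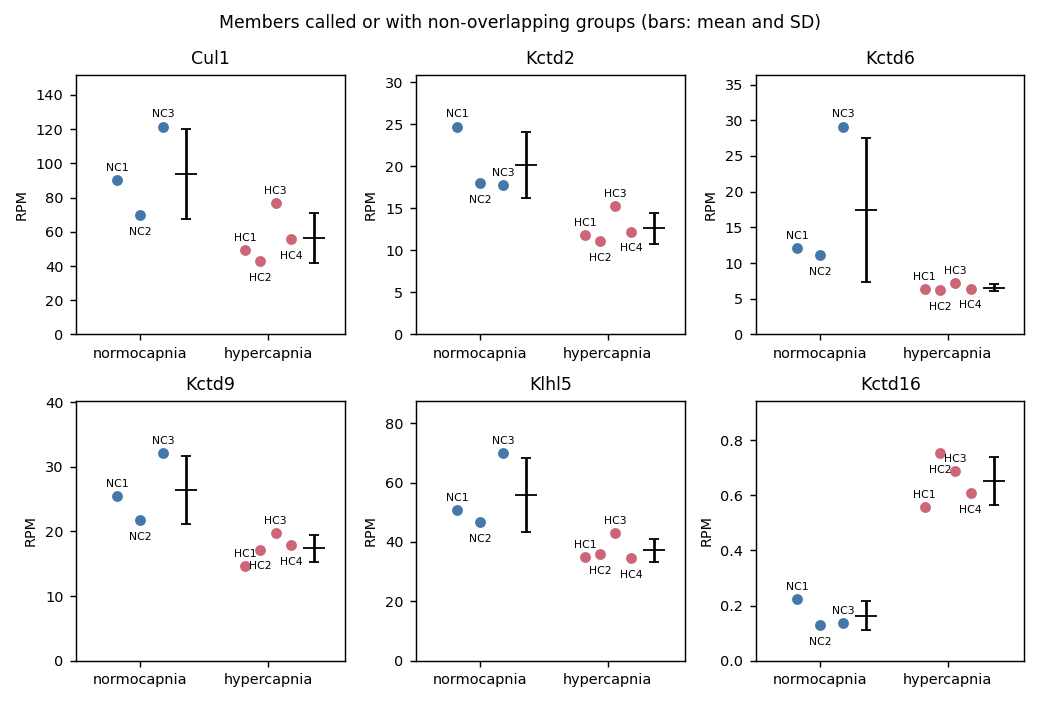
RPM of Cul1, Kctd2, Kctd6, Kctd9, Klhl5 and Kctd16 (y axes from 0, each on its own scale) in the 3 normocapnia and 4 hypercapnia libraries, with the mean and SD of each group in black. Hypercapnia lies below normocapnia in each library pair for Kctd2, Kctd6, Kctd9 and Klhl5 and above it for Kctd16, while HC3 overlaps the controls in Cul1.

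The other Kctd genes fall into groups by role. The remaining auxiliary subunits of GABA-B receptors showed no call: Kctd12 read 76.6, 105.2 and 53.3 RPM versus 121, 114, 81.7 and 92.1 RPM (difference 0.41 on the log2 scale, SE 0.27), Kctd12b lay between 1.45 and 6.87 RPM in normocapnia and between 4.88 and 7.89 RPM in hypercapnia, and Kctd8 had a read in NC2 alone. Kctd12 was called higher without NC2 (0.65, unadjusted limma p of 0.0461). In Kctd12 the highest pair was HC1 and HC2, which were also the libraries with most Adgre1, at 392 and 429 RPM beside 70.5 to 184 RPM in the other 5. The macrophage markers were split. Cd68, Mrc1, C1qa, C1qb and Fcgr1 were also highest in HC1 and HC2, but Lyz2 was highest in NC3, and Csf1r, Itgam and Cd14 in NC2. A link of Kctd12 to cell makeup was not tested.

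Of the partners of Kctd2 in G protein turnover, Kctd5 stood at 28.3, 15.5 and 11.8 RPM versus 18.2, 18.8, 15.1 and 16.8 RPM (difference -0.02 on the log2 scale, SE 0.29). Kctd17, which also acts at the base of the cilium, ran from 9.78 RPM in NC3 to 107 RPM in NC1, with 53.3 to 91.9 RPM in hypercapnia (log2 fold change 0.79, SE 0.81). The difference in Kctd17 was about as large as its error, NC3 alone lay far below all others, and the value was -0.15 without NC3 and 1.51 without NC1. That of Kctd5 was 0.32 without NC1.

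Kctd6 belongs to a trio that restrains Hedgehog signaling, with Kctd11 and Kctd21. Kctd11 read 6.02, 3.04 and 3.24 RPM versus 2.65, 2.31, 5.31 and 4.40 RPM (difference -0.13 on the log2 scale, SE 0.32), and Kctd21 read 1.83, 4.58 and 3.17 RPM versus 5.44, 6.13, 3.19 and 2.57 RPM (0.34, SE 0.35). Kctd11 turned to 0.12 without NC1. Their groups overlapped, so among the trio the call was that of Kctd6. HC1 and HC2 were the lowest libraries of Kctd11 and the highest of Kctd21.

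Kctd10 and Kctd13 steer the degradation of the small GTPase RhoA. Neither was called, and their median log2 fold change was 0.63. Kctd10 read 44.5, 76.3 and 21.8 RPM versus 73.3, 80.5, 62.2 and 63.5 RPM (difference 0.71 on the log2 scale, SE 0.42), and it was called higher without NC2 and with Xist as a covariate. Kctd1 and Kctd15, which curb the transcription factor AP-2, had a median of 0.58 with no call. Kctd20 read 207, 247 and 195 RPM versus 234, 253, 234 and 251 RPM (difference 0.18 on the log2 scale, SE 0.09, unadjusted limma p of 0.104).

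Among the 37 Klhl genes, 0 were called, with 1 at an unadjusted p under 0.05, 19 fold changes above 0 and 18 below. edgeR and DESeq2 each called Klhl5. Klhl5 read 50.8, 46.7 and 70.0 RPM under normocapnia, and 34.9, 35.9, 43.1 and 34.7 RPM under hypercapnia. The groups did not overlap, and the log2 fold change of -0.56 (SE 0.16, unadjusted limma p of 0.0153, adjusted p of 0.909) lay just under the fold threshold. The direction held in 20 of 20 alternatives and a call was made in 6, and without NC3 the value was -0.39.

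Klhl17, named for its tie to actin in neurons, had the smallest p among Klhl genes with a positive change, at 8.34, 12.5 and 5.16 RPM versus 10.8, 12.9, 14.1 and 13.9 RPM (difference 0.59 on the log2 scale, SE 0.28, unadjusted limma p of 0.0797). Klhl17 was called higher without NC2 (0.87, unadjusted limma p of 0.0112). Klhl36 (-0.26, SE 0.14) and Klhl38 (-0.71, SE 0.45) were not called either, though Klhl38 was called lower with quantile normalization (-1.08, unadjusted p of 0.00716). Klhl2, which with Klhl3 degrades the WNK kinases of salt transport, read 44.6, 58.1 and 65.4 RPM versus 32.3, 29.7, 54.2 and 51.9 RPM. HC1 and HC2 alone lay below the controls in Klhl2 (log2 fold change -0.44, SE 0.28).

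Klhl adaptors that act on autophagy and growth signaling are of interest here because the study follows both. Klhl20, which ends autophagy by degrading ULK1, read 15.7, 18.4 and 7.85 RPM versus 13.7, 14.3, 13.4 and 13.0 RPM. Its hypercapnia libraries had an SD of 0.553 RPM and lay inside the range of the controls (log2 fold change 0.04, SE 0.28), which turned to -0.30 without NC3. Klhl22, which removes the mTORC1 inhibitor DEPDC5, read 63.2, 9.41 and 5.64 RPM versus 16.5, 14.0, 23.4 and 22.3 RPM (difference 0.26 on the log2 scale, SE 0.82). The direction of Klhl22 was not settled: its mean was 26.1 RPM under normocapnia and 19.1 RPM under hypercapnia, the log2 fold change was -0.30 in edgeR, -0.33 in edgeR without a filter, -0.08 with quantile normalization, -0.07 without NC2 and -0.40 without NC3, and without NC1 it was 1.24 and called higher. For their targets, Ulk1 stood at 71.4, 79.7 and 3.03 RPM versus 42.5, 53.3, 37.4 and 37.4 RPM, with a log2 fold change of 0.59 (SE 1.13). Its direction was not settled either. The mean was 51.4 RPM under normocapnia and 42.6 RPM under hypercapnia, edgeR without a filter gave -0.21, and without NC3 Ulk1 was called lower (-0.82). Depdc5 stood at 28.5, 43.5 and 46.9 RPM versus 46.0, 53.3, 38.5 and 40.3 RPM (0.18, SE 0.21, and -0.03 without NC1).

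Of the 6 Kelch genes with known parts in mitosis 0 were called, 5 had a fold change above 0 and the median was 0.20. Klhl9, which with Klhl13 and Klhl21 guides Aurora B, read 202, 134 and 239 RPM versus 184, 163, 150.1 and 163 RPM (difference -0.18 on the log2 scale, SE 0.21). Klhl42, which removes a subunit of the microtubule-cutting enzyme katanin, read 41.2, 12.7 and 7.30 RPM versus 23.3, 24.3, 34.5 and 44.7 RPM. Its value of 0.90 (SE 0.60) was the highest of all 67 members on the log2(RPM + 1) scale, which understates members with few reads. Klhl42 was called higher without NC1 and when the satellite score was a covariate. Outside this group, Klhl11 read 106, 52.4 and 29.5 RPM versus 65.1, 54.9, 58.9 and 78.7 RPM (difference 0.21 on the log2 scale, SE 0.43). Without NC3 the value of Klhl11 turned to -0.22. In Klhl9, Klhl42 and Klhl11 the hypercapnia libraries lay within the range of the controls or within a few RPM of its upper end.

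The 11 members under a mean of 1 RPM were Klhl1, Klhl10, Klhl14, Klhl15, Klhl32, Klhl35, Kctd4, Kctd8, Kctd14, Kctd16 and Kctd19. Except for Kctd16 their groups overlapped, and none was called. The lowest of them, Kctd8, had 1 read in all 7 libraries together. The members that are not named singly had overlapping groups and no call.

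The muscle Kelch genes varied widely between libraries. All 7 had a mean of at least 1 RPM and 0 were called (5 fold changes below 0, median -0.13). Klhl41, a Kelch protein of the sarcomere whose loss causes nemaline myopathy, read 212, 21.8 and 4.96 RPM under normocapnia, and 13.0, 6.73, 28.5 and 46.8 RPM under hypercapnia. NC1 alone lay far above the rest, and NC3, HC2 and HC1 were the lowest (log2 fold change -0.64, SE 1.36). Without NC1 the value of Klhl41 turned to 0.76 and without NC3 it was -1.82. Klhl31, a muscle-restricted relative, read 13.5, 1.45 and 0.275 RPM versus 1.46, 0.553, 4.00 and 4.88 RPM, and Klhl40, which protects thin-filament proteins, read 6.96, 1.63 and 0.207 RPM versus 1.37, 0.603, 2.62 and 1.90 RPM. In both genes NC1 was highest and NC3 lowest, as it was for Pax7. Their log2 fold changes of -0.13 (SE 0.98) and -0.22 (SE 0.69) turned to 0.88 and 0.50 without NC1.

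Klhl30, a muscle gene too, went from 0.551 RPM in NC3 to 7.63 RPM in NC1, with 1.16 to 5.31 RPM in hypercapnia. Klhl38 read 4.24, 2.82 and 2.13 RPM versus 0.514, 0.603, 2.69 and 2.91 RPM. Klhl33 and Klhl34 lay between 0.171 and 4.33 RPM in all libraries. The log2 fold changes of Klhl30, Klhl33 and Klhl34 also changed sign when single libraries were left out, so of the 7 muscle Kelch genes the sign held for Klhl38 alone. Myog, which drives myoblast differentiation, stood at 871, 17.8 and 0.138 RPM in normocapnia and at 57.2, 30.0, 143 and 64.2 RPM in hypercapnia, and the summed level of 9 genes of differentiating muscle and myofibers was 5447, 1173 and 244 RPM versus 716, 391, 1343 and 2191 RPM. NC1 was the highest library and NC3 the lowest in Myog, in this sum and in Klhl30, Klhl31, Klhl40 and Klhl41.

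**Figure D3:**
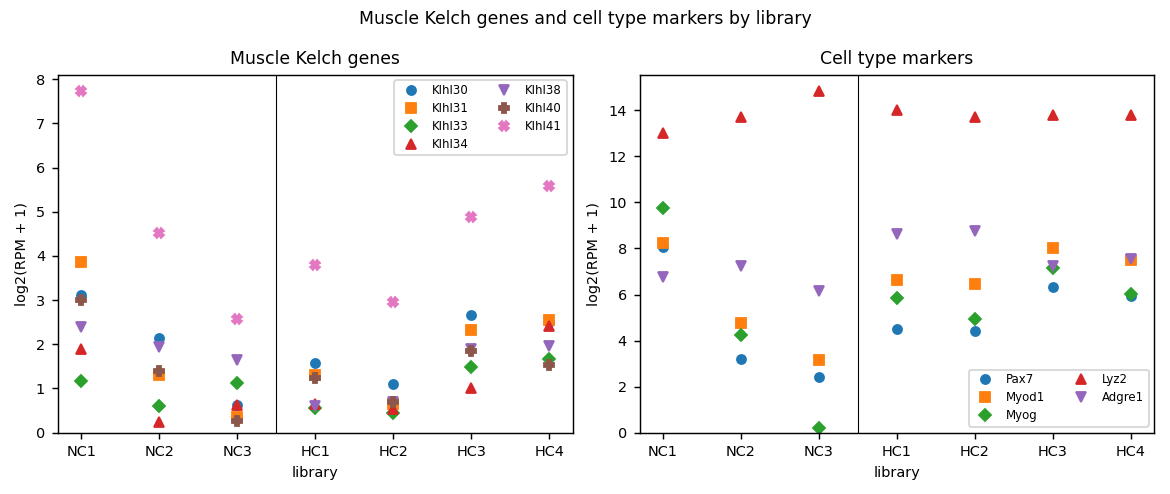
log2(RPM + 1) of the 7 muscle Kelch genes (left) and of Pax7, Myod1, Myog, Lyz2 and Adgre1 (right) in each library, with normocapnia to the left of the line and hypercapnia to the right. Klhl41 spans 4.96 RPM in NC3 to 212 RPM in NC1, and Pax7 and Myog are also lowest in NC3 and highest in NC1.

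The spread between libraries was larger in normocapnia for 48 of the 56 members at 1 RPM or more (85.7%), beside 81.1% of all genes at this level. The median SD on the log2(RPM + 1) scale was 0.81 in normocapnia and 0.33 in hypercapnia for members, and 0.68 and 0.29 for all genes. NC1 was the highest library for 26 of the 56 members (46.4%, all genes 31.4%) and NC3 the lowest for 34 (60.7%, all genes 49.0%). HC2 was the lowest for 13 members (23.2%, all genes 11.5%), among them 5 of the 8 cullins. Members that were highest in NC3 numbered 9, and Cul1, Cul2, Cul5, Kctd6, Kctd9, Klhl2, Klhl5, Klhl9 and Klhl36 made up this set.

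**Figure D4:**
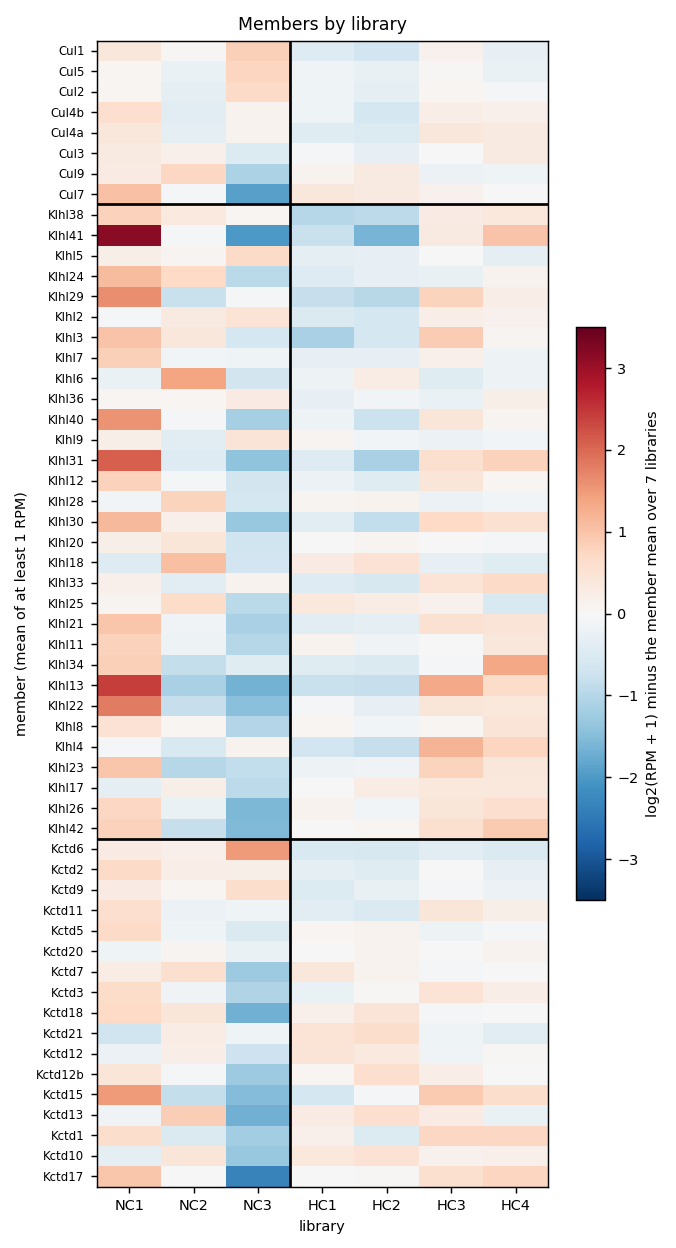
log2(RPM + 1) of the 56 members with a mean of at least 1 RPM, minus each member's mean over the 7 libraries, with libraries in columns and members in rows by family and by fold change (black lines part groups and families). NC1 is highest for 26 members and NC3 lowest for 34, and the 4 hypercapnia columns are paler than the 3 normocapnia columns.

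Stretches before the transcript start of the 4 members with a RefSeq window (GRCm38.p6) among the 5 that lay lower are shown because these genes were called lower or had groups that did not overlap. Each ends at or shortly before the start, leaves out annotated exons and is given on the plus strand, and capitals mark every match, on either strand, to the E-box CACGTG, the CCAAT box, the GC box GGGCGG, the cAMP element core TGACG, the antioxidant element core TGACNNNGC or the ETS site CCGGAA. The build used for the deposited table is not stated in what was read here.
Cul1, chr6:47454507-47454756, the third of 3 RefSeq starts: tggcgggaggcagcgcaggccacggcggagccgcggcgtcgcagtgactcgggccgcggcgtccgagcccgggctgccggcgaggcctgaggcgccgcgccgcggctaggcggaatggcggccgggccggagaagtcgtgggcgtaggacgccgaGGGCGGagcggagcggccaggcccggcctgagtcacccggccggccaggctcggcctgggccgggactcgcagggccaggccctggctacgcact
Kctd2, chr11:115419963-115420125: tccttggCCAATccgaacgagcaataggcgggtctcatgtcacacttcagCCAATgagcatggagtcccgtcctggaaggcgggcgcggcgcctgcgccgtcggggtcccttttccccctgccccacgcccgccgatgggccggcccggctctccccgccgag
Kctd6, chr14:8213831-8214080, the first of 3 RefSeq starts: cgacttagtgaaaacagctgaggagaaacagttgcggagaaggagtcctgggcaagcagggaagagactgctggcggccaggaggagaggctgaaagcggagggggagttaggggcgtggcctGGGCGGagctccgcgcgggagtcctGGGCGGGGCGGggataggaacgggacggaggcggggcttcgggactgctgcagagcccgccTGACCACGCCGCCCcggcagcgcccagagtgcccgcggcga
Klhl5, chr5:65107318-65107538, the first of 2 RefSeq starts: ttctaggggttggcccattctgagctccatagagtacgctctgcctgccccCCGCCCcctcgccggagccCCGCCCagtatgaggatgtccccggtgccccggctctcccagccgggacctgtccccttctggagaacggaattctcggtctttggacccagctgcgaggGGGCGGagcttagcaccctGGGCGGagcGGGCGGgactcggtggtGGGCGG

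These 4 stretches were rich in G and C, at 80.0% in Cul1, 69.9% in Kctd2, 69.6% in Kctd6 and 69.2% in Klhl5. The GC box letters GGGCGG were found 1 time in Cul1, 4 times in Kctd6 and 6 times in Klhl5, and of 32851 RefSeq windows 32.7% held them in the same 250 bases and 28.7% in the part used for Klhl5. In Kctd6, 2 of these matches share a base run (GGGCGGGGCGG), and the last one overlaps a match to TGACNNNGC, the core of the element bound by the stress factor NRF2, which 10.2% of windows hold. Kctd2 had no GC box match but 2 CCAAT boxes, which 25.9% of windows hold over the same bases. CACGTG, the core of the element bound by the lysosome and autophagy regulator TFEB, was in none of the 4 stretches, and 4.57% to 6.02% of windows hold it there.

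The wider machinery of the cullin ligases was looked at next, that is, the enzymes of NEDD8 transfer and removal, the RING subunits, the exchange factors and the bridging adaptors, the last of which serve particular cullins. Of 31 genes 28 were measured here, and limma called 0 of them, with 0 at an unadjusted p under 0.05 and a median log2 fold change of 0.01. Rbx1, Gps1 and Dcun1d1 were not found under these symbols, so Rnf7 alone stood for the RING subunits. edgeR and DESeq2 called 0 as well. Tceb2, which encodes elongin B, had the smallest p: it read 368, 350 and 567 RPM versus 287, 321, 337 and 260 RPM, with the groups apart (log2 fold change -0.48, SE 0.20, unadjusted limma p of 0.0566). Ube2m, the main enzyme that hands NEDD8 to cullins, read 454, 274 and 315 RPM versus 399, 426, 495 and 497 RPM (0.41, SE 0.19), and Cops7b of the COP9 signalosome, which removes NEDD8, had a log2 fold change of -0.26 (SE 0.13). Elongin B is shared by Cul2 and Cul5, and in all 3 genes NC3 was the highest library.

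Of 26 BTB adaptors whose symbols the rule does not match, 25 were measured and limma called 0 (2 at an unadjusted p under 0.05, 18 fold changes above 0, median 0.15). DESeq2 called 1 and edgeR 0. Btbd9 read 191, 190 and 139 RPM versus 247, 274, 221 and 283 RPM, with the groups apart and a fold just under the threshold (log2 fold change 0.57, SE 0.15, unadjusted limma p of 0.0103, adjusted p of 0.836). Btbd1 (0.29, SE 0.09) also had its groups apart, and Ipp (0.69, SE 0.33) did not pass the test. Over all genes 2.53% had their groups apart and higher. Keap1, the CUL3 adaptor that holds down NRF2, read 13.8, 20.9 and 3.17 RPM versus 18.3, 21.6, 14.7 and 13.7 RPM (difference 0.69 on the log2 scale, SE 0.60). NC3 alone lay below the rest in Keap1, and without it the log2 fold change of Keap1 was -0.01.

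Among 21 known targets of CUL3 adaptors 19 were measured, all but Hdac1 and Rhoa, and 0 of the 19 were called (1 at an unadjusted p under 0.05, 9 fold changes above 0, median -0.03). The gene past that p was Nfe2l2, which encodes NRF2 and was singled out after its values were seen. It read 132, 172 and 155 RPM versus 118, 94.4, 136 and 118 RPM, so that HC3 alone overlapped the controls, and its log2 fold change was -0.39 (SE 0.15, unadjusted limma p of 0.0416, adjusted p of 0.915). Levels of mRNA do not show how much of such a protein is degraded.

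**Figure D5:**
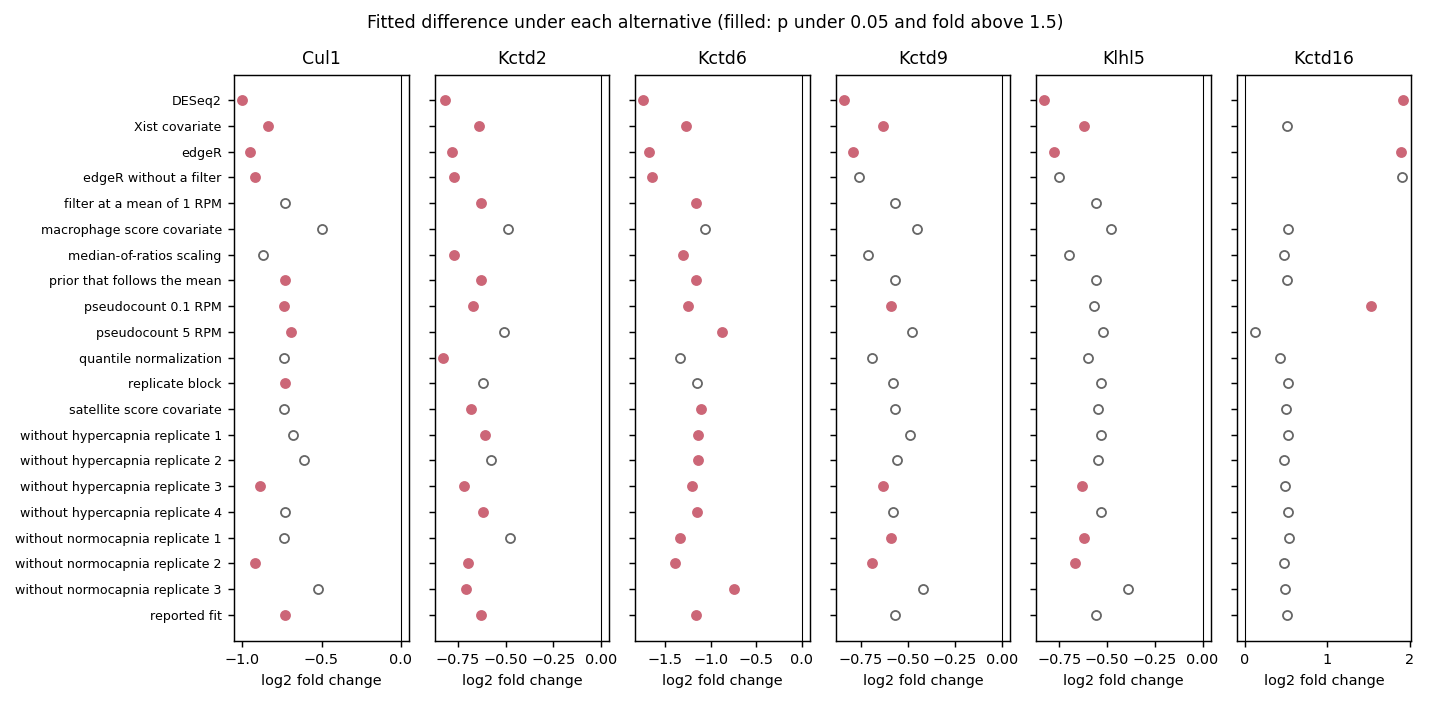
Log2 fold change (x axes, each on its own scale) of Cul1, Kctd2, Kctd6, Kctd9, Klhl5 and Kctd16 in the reported fit and under each of 20 alternatives (rows), with filled points where p was under 0.05 and the fold above 1.5. Each gene keeps its direction throughout, while Kctd6 is called in 17 alternatives, Kctd2 in 15, Cul1 in 10, Kctd9 in 7, Klhl5 in 6 and Kctd16 in 3 of 19.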

How the data were processed

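RNA of sorted Pax7-GFP cells was copied with an AmpliSeq panel, which amplifies a short stretch of each gene, and read on an Ion S5 sequencer. The authors deposited RPM values, in which every library sums to the same total, and the submitters name the Transcriptome Analysis Console. No source read here names the aligner or the build. Values depend on how well a stretch is amplified, so levels compare libraries rather than genes. Whole reads were recovered for 100% of values (tolerance 0.05 reads), which simulated tables also gave back (3 of 3). Each of 21 library pairs differed beyond sampling noise, and totals were 14527445 to 23388710 reads.

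limma 3.58.1 in R 4.3.3 was fitted on log2(RPM + 1) over 23930 genes without a filter. Alternatives were other pseudocounts, a filter, other scalings, a prior that follows the mean, edgeR 4.0.16 and DESeq2 1.42.0 on whole reads, covariates (Xist, macrophage and satellite scores), a replicate block and leaving out each library. On simulated libraries of 23930 genes, in which 200 changed 4-fold, limma called 100% of these at a dispersion of 0.02 and 60.5% at 0.4. Of unchanged genes it called 0.0211% and 3.29%, beside 1.14% lower and 1.43% higher calls in the data. Each simulation had a single dispersion, while the spread in the data was mostly larger in normocapnia. Members had log2 fold changes of -1.16 to 0.9 on the log2(RPM + 1) scale, smaller than 4-fold. The shares are not split by level, so how many changes limma misses among members was not tested. Members and lists were chosen with earlier results of these data known. Named genes are all cullins, called members, the 5 with the smallest p and the 3 with the highest mean of the Klhl and of the Kctd genes, all of 5 role groups, the called genes and the 3 with the smallest p of the machinery and related adaptor lists, and set targets and markers. Other genes were named after their values were seen. RefSeq windows matched 52 of 67 members.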

Additional observations from a re-analysis of the deposited data

Results flagged for a closer look

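In 2 members a hypercapnia library stood apart from the other 3 by a gap that took up most of the range of the group (Dixon's test, 4 libraries). For Klhl34 it was HC4, with 4.33 RPM, and the gap was 0.859 of the range. For Klhl5 it was HC3, with 43.1 RPM, and the gap was 0.856 of the range. Among the 35 members examined, chance alone flags about 1 in 20 groups.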

How the results depend on the processing

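Of 20 alternatives, those that moved the 3 members called lower gave 5 in DESeq2, in edgeR and with Xist as a covariate, 1 with the replicate block and 0 once the macrophage score was a covariate, and 1 to 5 without single libraries. Against 0 called higher, 1 was called in DESeq2, in edgeR, with a pseudocount of 0.1 RPM and with each of Xist, the macrophage score and the satellite score, and 0 to 4 without single libraries. Against 0 machinery genes, 1 was called with median-of-ratios scaling and with the macrophage or the satellite score (0 to 3 without single libraries), and against 0 related adaptors 1 in DESeq2, 2 with Xist and 1 with the satellite score (0 to 4 without single libraries). Of all genes called lower, 272 became 785 in DESeq2, 508 in edgeR, 642 in edgeR without a filter, 502 with Xist, 436 with the satellite score and 170 with a pseudocount of 5 RPM (154 to 534 without single libraries). All genes called higher numbered 343 and became 519 in DESeq2, and 814, 616 and 610 with Xist, the macrophage and the satellite score (216 to 1495 without single libraries). The log2 fold change of Ulk1 ran from -0.82 to 1.34 without single libraries, and it was called lower without NC3 (-0.82). Of 50 named genes, 28 changed sign at least once while uncalled in both fits. The causes were not tested. The replicate number does not pair the libraries (correlations of deviations -0.349, 0.503 and -0.0443), and under its block Cul1 alone was called, while Kctd6 stood at -1.15 (unadjusted limma p of 0.0504) and Kctd2 at -0.62 (unadjusted limma p of 0.0721), each lost by its p. Values near 3 reads, such as those of Kctd16 in the controls, limit what depth can show.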

Other observations

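Some members had 1 or 2 libraries apart from the rest, and the following were chosen after their values were seen. Klhl6, a Kelch adaptor of lymphoid and myeloid cells, stood at 86.7 RPM in NC2 and at 20.5 to 39.2 RPM in the other 6 libraries. Klhl13, which with Klhl9 guides Aurora B in mitosis, ran from 3.44 RPM in NC3 to 73.3 RPM in NC1, and its hypercapnia libraries split into 7.11 and 6.99 RPM in HC1 and HC2 and 34.3 and 20.9 RPM in HC3 and HC4. Kctd4 was read at 1.84 and 2.81 RPM in HC1 and HC2 and at 0 to 0.344 RPM elsewhere. Klhl14 stood at 4.67 RPM in HC4 and at or below 0.312 RPM in the other libraries. Kctd15 went from 0.551 RPM in NC3 to 11.5 RPM in NC1. Klhl24, an adaptor known for the turnover of keratin, read 66.1, 49.5 and 15.4 RPM under normocapnia, and 22.0, 24.7, 25.4 and 33.4 RPM under hypercapnia, and it was called lower without NC3.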
